A study of Rattus norvegicus with 22 samples.

Results

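The genes described here are 9 listed by name: the voltage-gated sodium channel pore subunits Scn1a, Scn3a and Scn8a, the auxiliary subunits Scn2b, Scn3b and Scn4b, and the axon initial segment genes Ank3, Sptbn4 and Nfasc. All 9 were among the 17172 gene names of the count table, and all 9 were among the 12875 genes that passed the filter on low counts and were tested. RNA was sequenced from the injured-side hippocampus of 14 adult male Sprague-Dawley rats. TBI rats received a lateral fluid percussion injury, a pressure pulse through an opening in the skull, and sham rats had the surgery and anesthesia without the pulse, so all groups carry the surgery. At day 1 after surgery 2 sham rats and 4 TBI rats were sampled, and at day 14 there were 4 of each. Ages beyond adult are not given in the sources used here, and the p-values measure only the spread between these samples.

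An action potential starts at the axon initial segment, where voltage-gated sodium channels are packed at high density. Each channel has a pore-forming alpha subunit, which opens on depolarization, and can carry beta subunits, which shift its gating and act as adhesion molecules. The channels are held in place by ankyrin-G, the product of Ank3, which binds betaIV-spectrin (Sptbn4) below the membrane and neurofascin (Nfasc) across it, and the same proteins recur at nodes of Ranvier. In the hippocampus Scn1a is best known from parvalbumin interneurons, Scn8a from the distal initial segment and nodes of principal cells, and Scn3a from immature neurons. Nfasc also has a glial form made by oligodendrocytes. Mutations of Scn1a, Scn3a and Scn8a cause epilepsies.

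Levels are given as CPM (counts divided by library size, with TMM library factors), and differences as log2 fold changes with their standard errors (SE) from 1 edgeR quasi-likelihood fit over the 14 rats. A gene was called higher or lower where its Benjamini-Hochberg adjusted p over all tested genes was under 0.05. Totals were 19189470 and 23743703 counts in the sham day 1 rats, 17183319 to 23159858 at TBI day 1, 15506103 to 19175585 at sham day 14 and 15065540 to 19781459 at TBI day 14. CPM was not divided by gene length, so levels are compared between rats and not between genes. Because the tissue is bulk hippocampus, fewer cells of a type and less RNA per cell cannot be told apart.

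Several libraries stood apart. The sham day 1 rats differed from each other, with a summed level of 10 choroid plexus markers of 8584 CPM in replicate 1 and 6.09 CPM in replicate 2, and the summed level reached 7530 CPM in TBI day 14 replicate 3 and 1521 CPM in replicate 2. TBI day 1 replicate 1 had the lowest sum of 10 pan-neuronal markers (2275 CPM, against 4831 to 5847 CPM in the other 3 rats of its group), the lowest sum of 7 hippocampal markers (250.1 against 611.1 to 987.9 CPM) and the highest sum of 8 oligodendrocyte markers (15720 against 4158 to 9031 CPM). The same rat had the highest sums of neocortical (194.4 CPM), striatal (40.8 CPM) and thalamic markers (83.7 CPM) of the 14 libraries. Hippocampal markers otherwise summed to 922.9 to 1272 CPM outside the TBI day 1 group. Results that rest on these libraries are given below with and without them.

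One day after injury every one of the 9 genes had a lower fitted level in TBI than in sham rats, and 4 were called lower: Scn1a, Scn8a, Scn4b and Ank3. Over all tested genes, 7.93% were called lower and 11.2% higher in this comparison. The median log2 fold change of the 9 genes was -0.77, beside -0.015 over all tested genes. Scn8a and Ank3 were lower in all 4 TBI rats than in both sham rats, as were Scn4b and Scn3b. Such a gap between groups was seen downward in 14.1% of tested genes. At 14 days 0 of the 9 differed from sham by this test, where 0.365% of tested genes were called lower and 4.07% higher. From TBI day 1 to TBI day 14, 7 were called higher, beside 17.6% of tested genes higher and 21.9% lower. The TBI effect was called different between the days for 0 of the 9, and for 3.68% of tested genes.

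The first pore subunit is Scn1a (Nav1.1). Its level was 27.4 and 62.6 CPM in the sham day 1 rats and 32.2, 28.0, 17.7 and 22.9 CPM in the TBI day 1 rats. The groups overlap, since sham replicate 1 lies within the TBI range. Scn1a was lower in the fit by -0.84 ± 0.28 on the log2 scale (adjusted p = 0.0469), and the call was lost in 12 of the 14 fits that left out 1 rat, kept only without sham day 1 replicate 1 or TBI day 1 replicate 1. DESeq2 also called Scn1a lower at day 1, but limma-voom did not, nor did edgeR where each sample had to hold 10 counts or more. In sham day 14 rats the level was 52.6, 50.2, 62.5 and 46.2 CPM, and in TBI day 14 rats 44.2, 29.8, 41.7 and 36.1 CPM. All 4 TBI rats lay below all 4 sham rats at day 14, the only one of the 9 genes with such a downward gap at that day, where 5.86% of tested genes have one, and the difference of -0.48 ± 0.23 did not pass the test (adjusted p = 0.399).

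Scn3a (Nav1.3) was at 43.8 and 75.3 CPM in sham day 1 rats and at 44.6, 51.5, 31.4 and 45.8 CPM in TBI day 1 rats. The groups overlap, and the log2 fold change of -0.46 ± 0.21 was not called (adjusted p = 0.145). At day 14 its level was 86.5, 79.1, 62.6 and 63.6 CPM in sham rats and 64.6, 59.2, 59.4 and 61.7 CPM in TBI rats, a narrow range in the injured group (mean 61.2 ± 2.52 CPM, SD, n = 4) that reaches into the sham range. Reads of 50 bases may match more than 1 of the closely related pore subunit genes, and how such reads were counted is not given in the sources used here, so the split among these genes is uncertain.

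Scn8a (Nav1.6) showed a large drop at day 1. It was at 192.1 and 341.2 CPM in sham rats and at 107.8, 179.2, 99.3 and 144.6 CPM in TBI rats, without overlap. The fitted log2 fold change was -1.01 ± 0.26 (adjusted p = 0.0138), a level 0.498 times that of sham. At day 14 sham rats had 365.7, 377.7, 428.9 and 296.8 CPM and TBI rats 390.8, 248.2, 325.3 and 303.1 CPM. These ranges overlap widely and the log2 difference was -0.21 ± 0.22 (adjusted p = 0.805).

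The promoter windows of 3 of the genes called at day 1 are shown because these genes were called lower in the same comparison and their sequences differ in base composition. Each window, from RefSeq on build GRCr8, runs from 250 bases before to 50 bases after the annotated start, and windows were found for 7 of the 9 genes. Capitals mark the GC box GGGCGG on either strand. Scn8a lies at chr7:133860977-133861276 (plus strand), Scn4b at chr8:54343623-54343922 (plus strand) and Ank3 at chr20:18929128-18929427 (minus strand).
Scn8a: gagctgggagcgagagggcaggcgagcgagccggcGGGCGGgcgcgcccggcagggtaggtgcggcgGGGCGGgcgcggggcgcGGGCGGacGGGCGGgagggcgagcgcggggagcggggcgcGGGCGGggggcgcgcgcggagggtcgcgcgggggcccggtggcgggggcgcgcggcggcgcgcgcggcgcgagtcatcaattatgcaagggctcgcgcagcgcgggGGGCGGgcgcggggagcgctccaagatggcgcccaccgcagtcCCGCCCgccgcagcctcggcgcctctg
Scn4b: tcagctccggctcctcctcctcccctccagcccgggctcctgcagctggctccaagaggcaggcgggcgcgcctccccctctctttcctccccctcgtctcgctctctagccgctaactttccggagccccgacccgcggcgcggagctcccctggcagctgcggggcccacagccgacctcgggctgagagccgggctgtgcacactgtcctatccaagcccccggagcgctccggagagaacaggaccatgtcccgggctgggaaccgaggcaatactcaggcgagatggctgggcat
Ank3: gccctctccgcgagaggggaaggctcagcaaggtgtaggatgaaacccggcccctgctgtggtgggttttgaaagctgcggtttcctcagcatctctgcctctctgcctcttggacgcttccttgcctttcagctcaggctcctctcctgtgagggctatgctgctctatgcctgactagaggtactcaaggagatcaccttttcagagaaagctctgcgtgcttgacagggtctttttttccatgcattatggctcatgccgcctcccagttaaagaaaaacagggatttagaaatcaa

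The Scn8a window is 84.7% G or C with 60 CpG dinucleotides and holds 7 GC boxes. The Scn4b window is 70.0% G or C with 24 CpG and the Ank3 window 52.7% with 7 CpG, and neither holds a GC box. Over 33469 windows of the same length the median was 51.7% G or C with 7 CpG, and 33.1% held a GC box. Sptbn4 was the other member with the motif, with 2 matches in a window of 75.0% G or C. Searched on both strands, the TATA box (TATAAA) was in no member's window and in 14.2% of all windows. The E-box searched (CACGTG) was likewise absent from the members and present in 6.42% of windows, and the cyclic AMP response element (TGACGTCA) was absent and present in 1.83%. CCAAT was found in 1 of the 2 Nfasc windows and in 37.5% of all windows. The 3 windows shown share none of the 5 motifs searched. They were shown because they differ in base composition, and Scn1a, also called at day 1, had no window. The motif search therefore cannot tell whether the genes called at day 1 share regulation. Scn2b and Scn4b are next to each other in GRCr8, on the same strand, and the window of Scn2b is 39.0% G or C with 2 CpG.

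Of the auxiliary subunits, Scn2b, which is linked to the pore by a disulfide bond, had the widest spread between rats relative to its mean in each of the 4 groups. It was at 69.1 and 182 CPM in sham day 1 rats and at 17.5, 42.3, 50.8 and 92.2 CPM in TBI day 1 rats. TBI replicate 4 lies above sham replicate 1, so the groups overlap, and TBI replicate 1, the rat with the fewest neuronal marker counts, is the lowest. Its log2 fold change of -1.31 ± 0.46 missed the threshold (adjusted p = 0.0574), and it was called without TBI day 1 replicate 4 (-1.77 ± 0.42, adjusted p = 0.00891). At day 14 the values were 66.8, 83.5, 120.4 and 84.8 CPM in sham rats and 97.8, 61.7, 92.0 and 90.9 CPM in TBI rats, with a log2 difference of -0.05 ± 0.39 (adjusted p = 0.984).

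Scn3b, a beta subunit not covalently bound to the pore, was at 851.8 and 1053 CPM in sham day 1 rats and at 264.8, 551.5, 687.9 and 843.8 CPM in TBI day 1 rats. All TBI values lay below both sham values, the highest of them by a small margin. The log2 fold change of -0.70 ± 0.29 was not called (adjusted p = 0.104). Without TBI day 1 replicate 1, the lowest, it was -0.46 ± 0.16 (adjusted p = 0.0677), and without replicate 4, the highest, it was called (-0.92 ± 0.27, adjusted p = 0.0265). At day 14 the values were 1273, 1374, 1432 and 1309 CPM in sham rats and 1495, 1263, 1373 and 1279 CPM in TBI rats, and the difference was 0.01 ± 0.24 on the log2 scale (adjusted p = 0.999).

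Scn4b, the beta subunit whose cytoplasmic tail can drive resurgent sodium current, had the closest sham day 1 pair of the 9 genes, at 37.1 and 35.4 CPM. TBI day 1 rats were at 21.1, 29.0, 13.3 and 21.4 CPM, all below. A log2 fold change of -0.77 ± 0.22 was called (adjusted p = 0.0247). Leaving out either sham rat moved the value to -0.74 ± 0.28 without replicate 1 and -0.81 ± 0.28 without replicate 2. The call was lost in both, with adjusted p of 0.0746 and 0.11. At day 14 the values were 44.4, 43.8, 50.4 and 48.5 CPM in sham rats and 50.9, 41.2, 53.9 and 59.6 CPM in TBI rats, which overlap (log2 difference 0.14 ± 0.18, adjusted p = 0.872).

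Among the scaffold genes, Ank3 had the tightest TBI day 1 group of the 9 genes in relative terms. Its level was 342.3 and 578.9 CPM in sham day 1 rats and 261.2, 279.7, 244 and 267.3 CPM in TBI day 1 rats, without overlap. Its log2 fold change of -0.81 ± 0.17 had the lowest adjusted p of the 9 genes at this day (0.00434). At day 14 the values were 581.9, 514.6, 578.4 and 527.7 CPM in sham rats and 528.5, 457.7, 434 and 462.6 CPM in TBI rats. The highest TBI value lay within the sham range and the other 3 below it, and the log2 difference of -0.23 ± 0.14 was not called (adjusted p = 0.593).

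Sptbn4, the spectrin partner of ankyrin-G, was not called at day 1. It was at 326.6 and 442.4 CPM in sham day 1 rats and at 374.4, 300.7, 307.5 and 281 CPM in TBI day 1 rats, with overlap and a log2 fold change of -0.28 ± 0.18 (adjusted p = 0.28). In sham day 14 rats it was at 723.5, 666.7, 482.2 and 570 CPM, above both sham day 1 rats. It was the only one of the 9 genes called between the sham groups, with sham day 1 below sham day 14 by -0.67 ± 0.19 on the log2 scale (adjusted p = 0.0236), in a comparison where 7.88% of tested genes were called lower. Of the libraries left out in turn, sham day 1 replicate 1 ended that call, as did sham day 14 replicates 1 and 2. TBI day 14 rats had 525.8, 542.9, 460.3 and 500.3 CPM, a log2 difference from sham day 14 of -0.27 ± 0.15 (adjusted p = 0.505). Between the sham groups, 8 of the 9 genes had a lower fitted level at day 1. Their median log2 fold change over the 9 was -0.29, beside 0.020 over all tested genes. Sptbn4, Scn3b and Scn4b were lower in both sham day 1 rats than in every sham day 14 rat, as were 20.1% of tested genes.

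Nfasc, the adhesion molecule, differed least at day 1. Sham day 1 rats were at 476.8 and 706.4 CPM and TBI day 1 rats at 633.8, 482.9, 464.7 and 487.4 CPM. The TBI rat with the highest Nfasc level was replicate 1, which also had the highest oligodendrocyte marker sum, and the part of that marker level in the Nfasc value was not tested. With all rats the log2 fold change was -0.19 ± 0.18 (adjusted p = 0.466), and -0.31 ± 0.16 without that rat (adjusted p = 0.2). At day 14 sham rats were at 695.4, 677, 702.2 and 725.6 CPM and TBI rats at 751.2, 642.8, 617.1 and 801.3 CPM, with a wider spread in TBI rats (SD 87.5 against 20.1 CPM, n = 4 each) and a log2 difference of 0.01 ± 0.14 (adjusted p = 0.996).

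**Figure D1:**
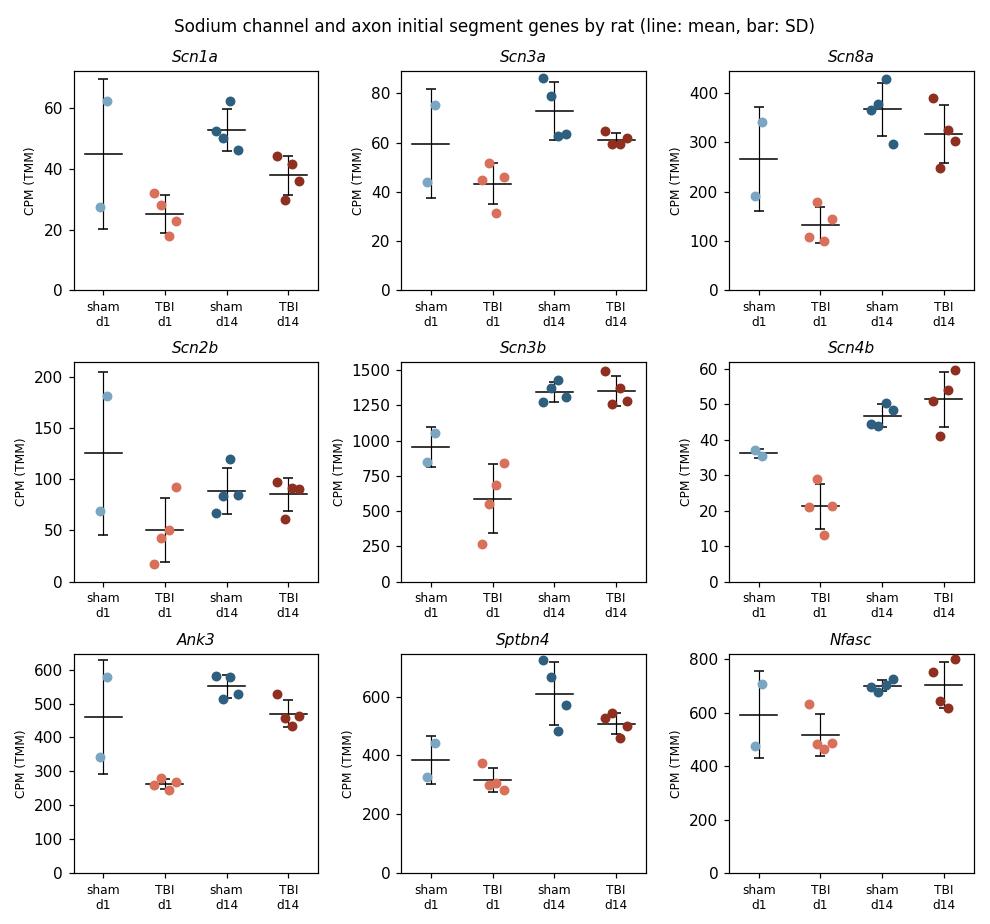
Level of each gene in each rat, in CPM with TMM factors (vertical axis, from 0), for sham and TBI rats at day 1 (d1) and day 14 (d14). Points are rats, lines are group means and bars are SD (n = 2 for sham day 1, n = 4 for the others), and the 4 TBI day 1 rats lie below both sham day 1 rats for Scn8a, Scn3b, Scn4b and Ank3.

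The size of the day 1 differences depended on which sham day 1 rat was used, and with 1 left the fit takes its spread from the other groups. Without sham replicate 1, the rat with choroid plexus markers, 5 of the 9 genes were called lower: Scn1a (-1.31 ± 0.26), Scn3a (-0.80 ± 0.22), Scn8a (-1.36 ± 0.28), Scn2b (-1.85 ± 0.50) and Ank3 (-1.14 ± 0.15). Without sham replicate 2, 0 were called by edgeR, and Nfasc turned to 0.12 ± 0.20. In that fit Scn8a was at -0.53 ± 0.29 and Ank3 at -0.38 ± 0.16, with adjusted p of 0.328 and 0.175. The values nearest to 0 were those of Scn3a (-0.016 ± 0.24), Sptbn4 (-0.049 ± 0.22) and Scn1a (-0.12 ± 0.28), and Scn2b was at -0.45 ± 0.54. With both sham rats, 7 of the 9 had an unadjusted p under 0.05. Shares of all tested genes were not computed at that threshold, nor for the fits that left out 1 rat, so these counts have no background beside them. Without TBI day 1 replicate 1, the same 4 genes were called as with it.

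The summed neuronal markers of the TBI day 1 rats also lay below those of the sham day 1 rats. The pan-neuronal sum was 6230 and 9526 CPM in sham day 1 rats and 2275 to 5847 CPM in TBI day 1 rats. Snap25 alone gave 3394 and 5129 CPM of the sham sums and 1328 to 3585 CPM of the TBI sums. The sum, and the scaling to it below, therefore rest largely on that gene. Of the 10 pan-neuronal genes 2 were called lower, with a median log2 fold change of -0.81. In sham day 14 rats the sum was 4321 to 5974 CPM, below both sham day 1 rats and overlapping the TBI day 1 rats. Between the sham groups 3 of these 10 genes (Rbfox3, Snap25 and Elavl4) were called higher at day 1, as were 11.3% of tested genes. The sum of 6 GABAergic and parvalbumin interneuron markers was 537.9 and 755.7 CPM in sham day 1 rats and 313.2 to 463.6 CPM in TBI day 1 rats, with 4 of 6 called lower. When library sizes were replaced by the pan-neuronal counts, 0 of the 9 genes were called at day 1 and 7 of the 9 values turned positive, while 24% of all tested genes were called on that scale and the median of all tested genes moved from -0.015 to 0.90. On that scale the median of the 9 genes was 0.20. The scaling moves all genes of a rat by the same factor, so it cannot test the gap between the 9 genes and all tested genes. Astrocyte markers summed to 3676 and 5532 CPM in sham day 1 rats and 10210 to 16210 CPM in TBI day 1 rats, but of these 6 genes only Gfap was called higher, 3 had values below 0 and the median log2 fold change was -0.21. All 8 oligodendrocyte markers had values below 0, and 4 were called lower. The part of these cell type levels in the results for the 9 genes was not tested.

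At day 14 none of the 9 genes was called in TBI against sham by edgeR, at an adjusted p under 0.05 or at an unadjusted p under 0.05, and DESeq2 called 0 with 1 gene at an unadjusted p under 0.05. Over all tested genes, 0.365% were called lower and 4.07% higher. The fitted differences ran from -0.48 (Scn1a) to 0.14 (Scn4b), with a median of -0.21 beside -0.031 over all tested genes, and 6 of the 9 were below 0. With SE of 0.14 to 0.39 these values do not show that the levels were alike. In each of the 14 fits that left out 1 rat, those with choroid plexus markers included, 0 of the 9 were called as well. The pan-neuronal sum was 4321 to 5974 CPM in sham day 14 rats and 3619 to 5164 CPM in TBI day 14 rats, which overlap, and 0 of its 10 genes were called.

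A test of whether the TBI effect differed between the days called 0 of the 9 genes, in a comparison where 1.44% of tested genes had a lower TBI effect at day 1. At an unadjusted p under 0.05 there were 3: Scn4b (-0.91 ± 0.29, adjusted p = 0.094), Ank3 (-0.58 ± 0.22, adjusted p = 0.163) and Scn8a (-0.79 ± 0.34, adjusted p = 0.209). The share of all tested genes at that threshold was not computed. The value was negative for all 9 genes, and it was nearest to 0 for Sptbn4 (-0.02 ± 0.23). DESeq2 called Scn4b. Ank3 was called without sham day 1 replicate 1 (-0.91 ± 0.19, adjusted p = 0.0142) and was at -0.16 ± 0.19 without replicate 2, and Scn4b was called by edgeR without TBI day 1 replicate 2.

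TBI day 14 rats were then compared with TBI day 1 rats, which leaves out the sham groups but joins injury stage, age and any difference between the collection days. Scn4b (1.28 ± 0.19), Scn8a (1.26 ± 0.22), Scn3b (1.20 ± 0.25), Ank3 (0.84 ± 0.14), Sptbn4 (0.68 ± 0.15), Scn3a (0.50 ± 0.18) and Nfasc (0.44 ± 0.15) were called higher at day 14, with adjusted p from 0.000127 (Scn4b) to 0.0379 (Scn3a). Scn1a (0.59 ± 0.23, adjusted p = 0.0575) and Scn2b (0.76 ± 0.39, adjusted p = 0.137) were not. Over all tested genes 17.6% were called higher and 21.9% lower. For 6 of the 9, all TBI day 14 rats lay above all TBI day 1 rats, as did 16.7% of tested genes, and the exceptions were Scn1a, Scn2b and Nfasc. Without TBI day 1 replicate 1, 8 were called, with Scn1a added. The fewest, 5, were called without TBI day 1 replicate 3, TBI day 14 replicate 1 or TBI day 14 replicate 4, when Scn3a and Nfasc were not. In the same comparison 6 of 8 oligodendrocyte markers (median 0.97) and 3 of 6 tested hippocampal markers were called higher. Of 4 neocortical markers 2 were called lower. Of 10 pan-neuronal markers 0 were called (median 0.28), and of 6 interneuron markers 1 was called higher and 1 lower. The part of these markers in the results was not tested.

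Against the 4 sham day 14 rats, which are more alike than the sham day 1 pair for every one of the 9 genes but Scn4b (by SD over mean), TBI day 1 rats were lower for 8 of the 9 genes, while 21.0% of all tested genes were called lower. This comparison shares its TBI rats with the first, and its groups also differ in collection day and age. Scn8a was lowest (-1.47 ± 0.22, adjusted p = 9.64e-05), followed by Scn3b (-1.20 ± 0.25), Scn4b (-1.14 ± 0.19), Scn1a (-1.07 ± 0.23), Ank3 (-1.07 ± 0.14), Sptbn4 (-0.95 ± 0.15), Scn3a (-0.75 ± 0.18) and Nfasc (-0.44 ± 0.15, adjusted p = 0.0233). Scn2b was at -0.81 ± 0.39 (adjusted p = 0.103). For the same 8 genes every TBI day 1 rat lay below every sham day 14 rat, as did 17.8% of tested genes. Leaving out sham day 14 replicate 4 ended the call of Nfasc (-0.42 ± 0.16, adjusted p = 0.0552), as did TBI day 1 replicates 2, 3 and 4. Called lower in this comparison were also 8 of 8 oligodendrocyte markers and 5 of 6 interneuron markers (the sixth, Pvalb, was higher). So were 4 of 10 pan-neuronal and 3 of 6 tested hippocampal markers. Of markers of other regions, 3 of 3 tested thalamic and 2 of 4 neocortical ones were called higher, and 1 of 5 striatal ones lower. The part of these markers in the results was not tested.

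**Figure D2:**
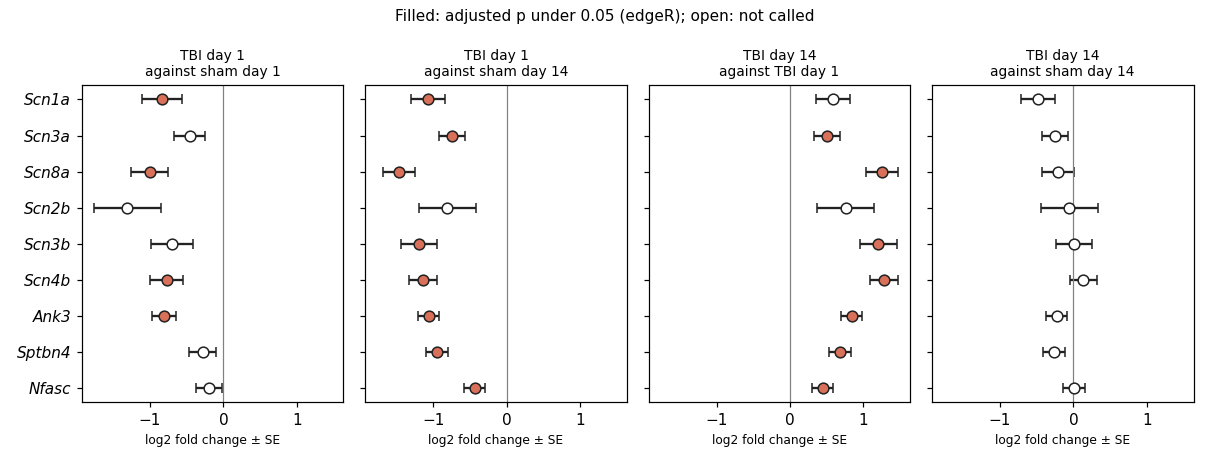
Log2 fold change (horizontal axis, with SE) of each gene in 4 comparisons, from the edgeR fit over 14 rats. Filled points were called at an adjusted p under 0.05 (4 genes at TBI day 1 against sham day 1, 8 against sham day 14, 7 between the TBI groups and 0 at TBI day 14 against sham day 14).

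Ratios of 2 members within a rat do not depend on the library factor. The Nfasc to Ank3 log2 ratio was 0.51, 0.49, 0.51 and 0.79 in TBI day 14 rats and 0.26, 0.40, 0.28 and 0.46 in sham day 14 rats, without overlap. Its mean was higher by 0.23 in TBI rats, with p = 0.0286 by a two-sided exact permutation test over 70 arrangements, the smallest value these groups allow, and an adjusted p of 0.0858 over the 6 ratios tested. At day 1 it was 1.28, 0.79, 0.93 and 0.87 in TBI rats and 0.48 and 0.29 in sham rats, a difference of 0.58 (0.48 without TBI day 1 replicate 1), where 2 against 4 rats cannot give a p below 0.0667. The ratio was thus higher in each TBI rat than in each sham rat of its day.

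The Scn8a to Scn1a log2 ratio was 3.14, 3.06, 2.96 and 3.07 in TBI day 14 rats and 2.80, 2.91, 2.78 and 2.68 in sham day 14 rats, again apart, with a difference of 0.27 (exact permutation p = 0.0286, adjusted p = 0.0858). At day 1 it was 1.74, 2.68, 2.48 and 2.66 in TBI rats and 2.81 and 2.45 in sham rats, which overlap. The day 1 difference was -0.24 with all rats and -0.022 without TBI day 1 replicate 1, the lowest. Neither ratio passed the adjusted threshold. The other 4 ratios at day 14 had exact permutation p of 0.314 (Scn3a to Scn1a), 0.343 (Scn4b to Scn2b), 0.886 (Scn3b to Scn2b) and 0.886 (Sptbn4 to Ank3).

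**Figure D3:**
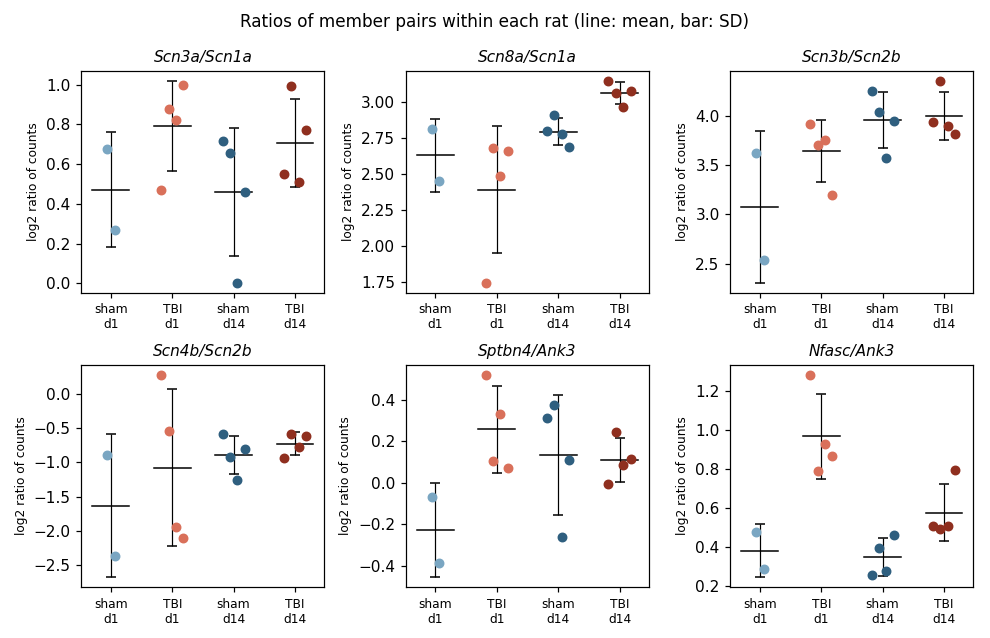
Log2 ratio of the counts of 2 genes within each rat (vertical axis, scale set per panel) for the 6 pairs and 4 groups. Points are rats, lines are means and bars are SD, and the TBI and sham rats of day 14 do not overlap for Scn8a/Scn1a (means 3.06 and 2.79) and Nfasc/Ank3 (means 0.57 and 0.35).

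Across the 14 rats the 9 profiles were compared by the root mean square difference of log2 CPM after each gene was centred on its mean. The most alike members were Scn3a and Ank3 (0.213) and the least alike Scn2b and Sptbn4 (0.748). Outside the list, Celsr2 (0.207) was among the nearest to Scn8a. Scn1a was nearest to Fat3 (0.166) and Vps13a (0.167), and Scn3a to Dnmt3a (0.123), a DNA methyltransferase, and Rimbp2 (0.124). Scn3b was nearest to Slc24a3 (0.125) and Nell2 (0.135), and Scn4b to Syt7 (0.19), a synaptotagmin, and Mfsd4 (0.211). Ank3 was nearest to Plxna2 (0.126), a semaphorin receptor subunit, and Pcsk5 (0.129). Sptbn4 was nearest to Ubr2 (0.106) and Ppfia4 (0.119), and Nfasc to Zfyve26 (0.123) and Dstyk (0.124). These are descriptions of 14 shared libraries.

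Other genes of the initial segment and node were followed in a list of 39 symbols, of which 36 were in the table and 34 were tested. At day 1, 12 were called lower and 2 higher in TBI than in sham, beside 7.93% of all tested genes lower and 11.2% higher. The median log2 fold change of the list was -0.52, beside -0.015 over all tested genes. The largest decreases among those called were in Kcnq3 (-1.44 ± 0.40, adjusted p = 0.0218), a subunit of the M-current channel, Cntn1 (-1.24 ± 0.22, adjusted p = 0.00167), a paranodal adhesion molecule, and Kcna1 (-1.22 ± 0.40, adjusted p = 0.0443), a Kv1 channel of the distal initial segment and juxtaparanode. Without sham day 1 replicate 2 only Cntn1 of these 3 was called, and the call of Kcna1 was lost in 8 of the 14 fits that left out 1 rat. Among relatives of the scaffold genes, Ank1 and Sptbn1 were called lower. Scn2a, listed in the table by its older symbol Scn2a1, was at -0.94 ± 0.33 and was not called (adjusted p = 0.0561), and 0 of 6 genes of the microtubule and kinase set were called.

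Gldn and Scn7a moved the other way. Gldn, which encodes gliomedin, a glial ligand of neurofascin at peripheral nodes, was at 8.08 and 11.3 CPM in sham day 1 rats and at 62.9, 135.3, 73.9 and 138.9 CPM in TBI day 1 rats. With a log2 fold change of 3.40 ± 0.32 (adjusted p = 9.74e-06), its level rose 10.6-fold. At day 14 it was at 12.2, 12.4, 13.0 and 13.7 CPM in sham rats and 12.1, 11.1, 10.98 and 12.7 CPM in TBI rats, in the sham range or just below it. It was the only gene of this list whose TBI effect differed between the days (3.53 ± 0.38, adjusted p = 0.000376), beside 3.68% of all tested genes.

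Scn7a encodes Nax, a sodium-sensing relative of the pore subunits that is found in glia and is not gated by voltage in the usual way. It was at 0.701 and 1.80 CPM in sham day 1 rats and 5.76, 3.65, 8.94 and 18.5 CPM in TBI day 1 rats, resting on 13 and 39 counts in the sham rats. It was called at day 1 (2.86 ± 0.68, adjusted p = 0.00966), but not without sham replicate 1, the lowest. At day 14 it was at 1.57, 1.68, 1.30 and 1.42 CPM in sham rats and 14.6, 6.33, 4.37 and 13.3 CPM in TBI rats, without overlap (2.69 ± 0.51, adjusted p = 0.00487). It was the only 1 of the 34 genes called at day 14, beside 4.07% of all tested genes called higher and 0.365% lower. By limma-voom it was called at neither day.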

How the data were processed

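Total RNA from hippocampus was made into stranded mRNA libraries and sequenced as single-end 50-base reads. The deposited counts are whole-number read counts per gene that the authors made with STAR 2.4.2a on build rn5 and featureCounts 1.5.0 with UCSC genes, without normalization. The strand setting and the treatment of reads that match several genes are not given in the sources used here. Samples were grouped by their labels.

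edgeR 4.0.16, run under R 4.3.3, was fitted to the counts (default filter by group, TMM factors, quasi-likelihood test with 1 mean per group, 14 samples), and p-values are two-sided and adjusted over 12875 genes by the Benjamini-Hochberg method. CPM uses TMM factors, log2 CPM a prior count of 2 and log2 ratios 0.5 added to each count. Alternatives used limma 3.58.1 (voom), DESeq2 1.42.0, other factors, filters, samples and scaling, and the replicate number as a block. Figures were drawn with matplotlib 3.10.9. The day 1 ratios without TBI day 1 replicate 1 were added after the data were seen. The fits were tried on simulated counts with planted changes larger than any fitted for the members, which does not test how changes of the members' sizes are called. Nothing in the labels says that rats shared a litter or batch. The paper describes the expression in its trajectory figure as corrected for batch effect, and which batches were meant is not given in the sources used here.

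The members and gene lists were chosen with earlier results of these data known. Named in the text are all 9 members, the 3 called list genes with the largest change in each direction per TBI comparison, and for each member called in any comparison its 2 nearest profiles. Ank1, Sptbn1 and Scn2a1 fall outside this rule and were chosen after their values were seen. Some named-gene results are not reported here. The 4 H3K4me3 peak lists were not used, because their rn5 positions could not be tied to genes with the GRCr8 tables. The paper itself displays day 1 H3K4me3 coverage at Ank3, as an example of a downregulated gene, and that result was not examined here.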

Additional observations from a re-analysis of the deposited data

Results flagged for a closer look

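Of 27 sets of 4 rats (9 genes in the 3 groups of 4), 2 held a rat far from the others by Dixon's criterion (the gap to the nearest rat over the group's range, at its 95% critical value), and chance marks about 1 in 20 such sets. Nfasc was at a log2 CPM of 9.31 in TBI day 1 replicate 1, against 8.86 to 8.93 in the other 3 rats of the group. That rat also had the group's highest oligodendrocyte marker sum and its lowest pan-neuronal marker sum, whose part in the value was not tested. Scn2b was at a log2 CPM of 5.95 in TBI day 14 replicate 2, against 6.51 to 6.61 in the other 3 rats, and that rat had a choroid plexus marker sum of 1521 CPM and the lowest pan-neuronal sum of its group (3619 CPM). The difference of the TBI effects between the days was called for 0 of the 9 genes.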

How the results depend on the processing

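Over the settings other than leaving out a rat, 437 of 495 log2 fold changes of the 9 genes kept their direction and their side of the threshold, 27 lost and 11 gained a call, and 20 changed sign, 16 of them with scaling to pan-neuronal markers. With that scaling the numbers of members called fell to 0 at TBI day 1 against sham day 1, 4 at TBI day 14 against TBI day 1, 0 between the sham groups and 2 at TBI day 1 against sham day 14, and 3 list genes were called at day 1. The values that changed sign were, at day 1, Scn1a 0.31, Scn3a 0.57, Scn3b 0.044, Scn4b 0.16, Ank3 0.20, Sptbn4 0.75 and Nfasc 0.87, at day 14, Scn8a 0.016, Scn2b 0.18 and Ank3 0.0061, for the difference between days, Scn1a 0.57, Scn3a 0.60, Ank3 0.19, Sptbn4 0.79 and Nfasc 0.63, and between the sham groups, Scn2b -0.21. This scaling moved the median of all tested genes from -0.015 to 0.90 at day 1, and the cause of the changes was not tested.

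A threshold of 0.01 left 1 member and 5 list genes at day 1 and 0 members between the sham groups. Fitting only the 2 groups compared gave fewer calls at day 1 (0 members with 5 at an unadjusted p under 0.05, and 2 list genes) and between the sham groups (0 members), but more list genes at day 14 (4 against 1) and 8 members against 7 at TBI day 14 against TBI day 1. With all 6 sham rats as baseline 8 members were called at day 1. DESeq2 called 1 member for the difference between days and 3 list genes at day 14, where limma-voom called 0 list genes. Other sign changes were near 0: Nfasc at day 14 with limma-voom (-0.00093) and Sptbn4 for the difference between days where each sample had to hold 10 counts or more (0.0013).

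The correlations of same-numbered samples ran from -0.348 to 0.243, and the main fit did not pair rats by replicate number. Samples with different numbers were not compared, so these values cannot exclude a pairing. With the replicate block the count at day 1 was also 4, with Scn2b (-1.68, adjusted p = 0.0241) called and Scn1a (-0.76, adjusted p = 0.112) not called, and 9 were called at TBI day 1 against sham day 14. Small values changed sign under it, Scn2b at day 14 (0.0099) and Sptbn4 for the difference between days (0.097).

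Leaving out 1 rat at a time gave 0 to 5 members and 5 to 16 list genes at day 1 (lowest without sham day 1 replicate 2, highest without sham day 1 replicate 1 or TBI day 1 replicate 4), 1 to 3 list genes at day 14 (highest without TBI day 1 replicate 1), 0 to 1 member for the difference between days and 0 to 2 between the sham groups. The call of Scn1a at day 1 was lost in 12 of 14 such fits. Log2 fold changes that changed sign in such a fit ran, at day 1, from -0.45 to 0.12 for Nfasc, at day 14 from -0.17 to 0.13 for Scn2b, from -0.045 to 0.037 for Scn3b and from -0.062 to 0.080 for Nfasc, for the difference between days from -0.83 to 0.36 for Scn1a, from -0.55 to 0.24 for Scn3a, from -0.22 to 0.22 for Sptbn4 and from -0.46 to 0.11 for Nfasc, and between the sham groups from -0.95 to 0.24 for Scn1a, from -0.73 to 0.048 for Scn3a, from -0.36 to 1.04 for Scn2b, from -0.69 to 0.074 for Ank3 and from -0.55 to 0.014 for Nfasc. With 1 sham day 1 rat left, that rat is assumed to vary like the other groups. At day 14 the ratios Sptbn4/Ank3 (-0.16 to 0.055) and Scn3b/Scn2b (-0.080 to 0.15) changed sign in such fits, and the other 4 did not. The sham day 1 group of 2 rats sets the precision at day 1.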
